A study of Homo sapiens with 9 samples.

Results

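The 57 genes described here encode the machinery that copies chromosomal DNA and the enzymes that supply its nucleotides. They were taken by gene symbol from a table of 60564 human gene identifiers, in which each symbol occurred once, and all 57 passed the filter on low values that left 12747 genes to test. The cells were BxPC3, a long-established line from a human ductal cancer of the pancreas, in 3 groups of 3 libraries labelled as biological replicates. STAT3, a transcription factor activated by cytokines, was the target of small interfering RNA (siRNA) in one group, a second had received WB436B at 0.1 µM, a compound known here by its code name, and the third had received vehicle. No non-targeting siRNA is named in the labels, so the siRNA group is compared with vehicle-treated cells. Time under treatment is not given in the sources used here, and the p-values rest on library-to-library spread, part of which may be technical.

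DNA replication starts with the origin recognition complex (ORC), which together with CDC6 and CDT1 loads the ring-shaped MCM2 to MCM7 helicase onto DNA before S phase. The kinase CDC7 with its activator DBF4, and cyclin-dependent kinases, then let CDC45 and the GINS complex join the helicase, and DNA polymerases follow behind it. Clamp loader, clamp, single-strand binding protein, flap nuclease and ligase complete the synthesis of both strands. Many of these genes are known targets of E2F transcription factors, which drive the passage from G1 into S phase.

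Levels are given as FPKM, fragments scaled to transcript length and to the mapped fragments of the library, as the authors deposited them. The estimated depth was 14900000 to 20400000 fragments in 8 libraries and 47200000 in vehicle 1, so that 1 FPKM stood for 14.9 to 47.2 fragments per kilobase. Pearson correlations across tested genes were 0.980 to 0.988 within groups and 0.918 to 0.941 between groups. STAT3 itself stood at 2.98, 2.58 and 3.02 FPKM in the siRNA libraries and at 10.5, 10.9 and 10.8 FPKM under WB436B, against 16.4, 15.8 and 15.1 FPKM in vehicle. Of 8 ductal epithelial markers, 7 averaged at least 10 FPKM in every group, and 9 of 13 markers of fibroblasts, leukocytes, endothelium, acinar and islet cells averaged under 1 FPKM in every group, with INS and GCG at 0 throughout. Summed over the 13 markers, levels were 21.1 to 25.8 FPKM after the siRNA and 6.01 to 6.31 FPKM under WB436B, against 15.1 to 16.5 FPKM in vehicle. Of the 4 tested, PRSS1 (2.75) and COL1A1 (0.27) rose and CEL (-0.72) fell after the siRNA, and all 4, CD68 included, fell under WB436B (-1.49 to -0.43). The 8 ductal markers summed to 2161 to 2277 FPKM after the siRNA and 1856 to 2011 FPKM under WB436B, against 1594 to 1650 FPKM in vehicle, and single ones ranged from MUC1 (-1.80) to KRT17 (1.37) after the siRNA. The part of these shifts in the results below was not tested.

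Transcripts of the replication machinery were higher in both treated groups. After STAT3 siRNA 44 of the 57 genes rose and 1 fell, where 29.8% of all tested genes rose, 22.3% fell and 52.1% moved either way. Under WB436B 47 rose and 1 fell, where 24.9% of all tested genes rose, 41.1% fell and 65.9% moved either way. Each call is a limma adjusted p below 0.05 across all tested genes. With median-of-ratios scaling, which brings the median of all tested genes close to 0, 44 rose and 2 fell after the siRNA. Of all tested genes 24.3% then rose and 25.7% fell. Under WB436B 52 rose and 1 fell with that scaling, where 33.1% of all tested genes rose and 33.2% fell. In bulk RNA, a larger share of cells in S phase and more RNA per cell cannot be told apart.

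The summed level of the 57 genes was 1054, 1041 and 1033 FPKM in the siRNA libraries and 1119, 1091 and 1110 FPKM under WB436B, against 753, 757 and 787 FPKM in vehicle. That sum made up 0.375% ± 0.00773 of all FPKM after the siRNA and 0.402% ± 0.0103 under WB436B, against 0.265% ± 0.00762 in vehicle (SD, n = 3 each). The groups of libraries did not overlap in this sum. The median log2 fold change over the genes was 0.51 after the siRNA, beside 0.062 over all tested genes, and 0.45 under WB436B, beside -0.13 over all tested genes. Fold changes are differences of log2(FPKM + 1) which makes changes of genes with low levels look smaller.

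Both comparisons use the same 3 vehicle libraries, so their results are not independent. The calls were upward in both for 39 genes. The share of all tested genes upward in both was not computed. Singly, 29.8% were upward after the siRNA and 24.9% under WB436B. A further 8 genes (GINS3, ORC2, ORC3, GMNN, DBF4, PCNA, RFC1 and RRM1) were called upward under WB436B and not after the siRNA, and 4 (GINS4, POLD3, LIG1 and TIMELESS) upward after the siRNA and not under WB436B. E2F2 rose after the siRNA and fell under WB436B, TK1 fell after the siRNA alone among the calls, and PRIM1, RPA3, TYMS and DUT were called in neither. An exact two-sided permutation test of 3 against 3 libraries cannot go below p = 0.1.

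**Figure D1:**
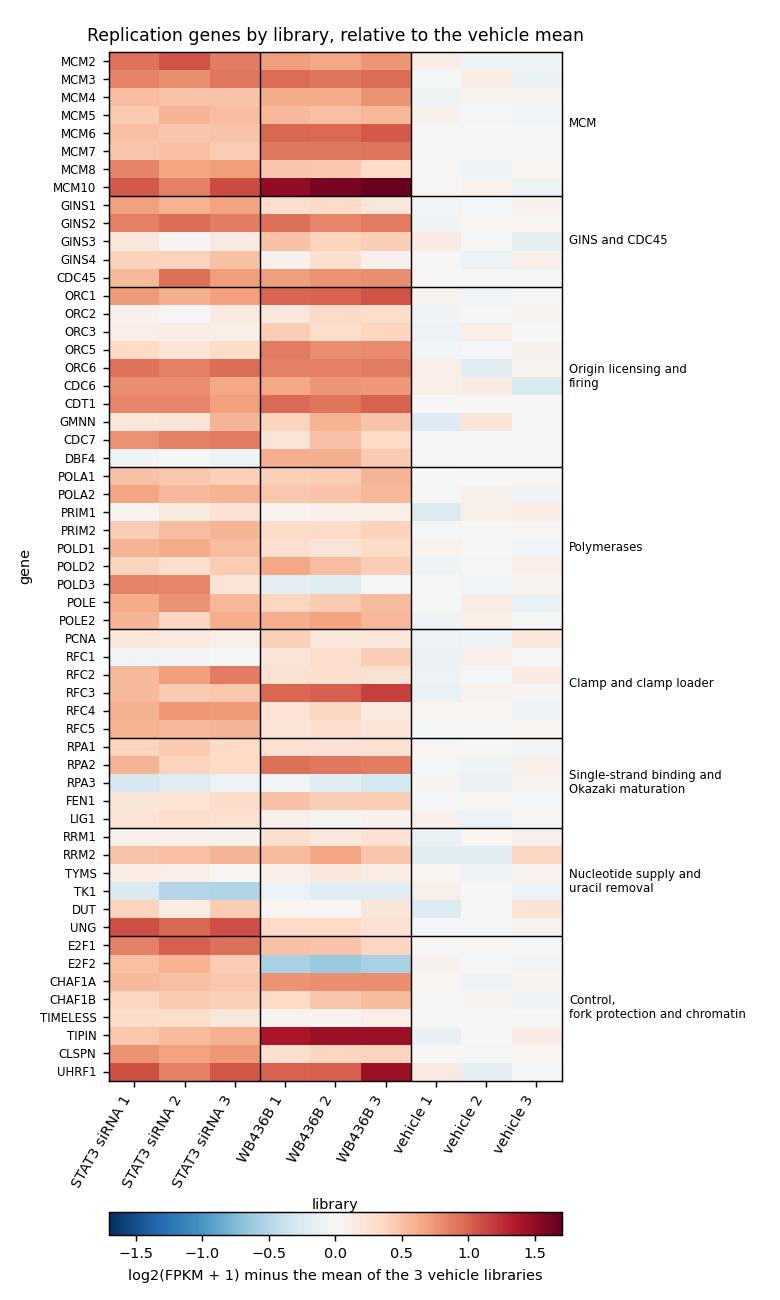
Level of each of the 57 genes in each of the 9 libraries, as log2(FPKM + 1) minus the mean of the 3 vehicle libraries, with genes in rows by role and libraries in columns. Red marks higher and blue lower values; MCM10 and TIPIN are darkest under WB436B, and E2F2 is red in the siRNA libraries and blue under WB436B.

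Among the 57 genes, PCNA had the highest mean level in every group, at 156 FPKM after the siRNA, 169 FPKM under WB436B and 141 FPKM in vehicle. MCM7 came next in each group. The lowest mean was that of DBF4 after the siRNA (3.29 FPKM), of E2F2 under WB436B (2.00 FPKM) and of CLSPN in vehicle (1.80 FPKM). The 57 means had a median of 13.5 FPKM after the siRNA and 12.1 FPKM under WB436B, against 8.06 FPKM in vehicle. A mean of 10 FPKM or above was reached by 32 genes after the siRNA and 37 under WB436B, against 23 in vehicle.

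Promoter sequence from RefSeq (GRCh38.p14, 250 bases before to 50 bases after the gene start) was matched by symbol for 51 of the 57 genes; MCM4, MCM5, GINS4, POLD3, RPA2 and RPA3 had no match. The E2F motif was searched on both strands as TTTCCCGC, TTTCGCGC, TTTGCCGC or TTTGGCGC, and 23 of the 51 promoters (45.1%) held at least 1 copy, beside 3.3% of all 27305 promoters of the same length. CCAAT, the NF-Y motif, was present in 58.8% of the 51 and 35.7% of all promoters, and the Sp1 motif GGGCGG in 72.5% and 44.6%. The STAT motif TTCNNNGAA was present in 5.9% of the 51 and 7.9% of all, and TTTGAA, the core of the CHR element of mitotic genes, in 3.9% and 15.4%. The set of all promoters was not limited to the tested genes. These are matches of letters, not binding sites.

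Upstream windows of 250 bases from 5 genes, each ending at the base before the gene start and written 5′ to 3′ on the gene's strand, show the E2F letters, or their absence, in MCM6, in both E2F genes and in the genes with the largest log2 fold changes in each comparison (UNG and MCM10). Capitals mark the E2F motif. MCM6 holds the run TTTGGCGCGAAA at 2 places, each matching TTTGGCGC on the gene's strand and TTTCGCGC on the other, E2F1 and E2F2 carry TTTGGCGC near the start, and UNG and MCM10 hold no copy of the letters searched.
MCM6, chr2:135876444-135876693, minus strand: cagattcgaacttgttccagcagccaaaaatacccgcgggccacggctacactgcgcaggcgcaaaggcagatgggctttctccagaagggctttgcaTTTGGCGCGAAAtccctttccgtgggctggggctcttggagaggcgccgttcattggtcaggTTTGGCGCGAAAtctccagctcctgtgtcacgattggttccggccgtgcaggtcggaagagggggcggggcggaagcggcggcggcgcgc
E2F1, chr20:33686386-33686635, minus strand: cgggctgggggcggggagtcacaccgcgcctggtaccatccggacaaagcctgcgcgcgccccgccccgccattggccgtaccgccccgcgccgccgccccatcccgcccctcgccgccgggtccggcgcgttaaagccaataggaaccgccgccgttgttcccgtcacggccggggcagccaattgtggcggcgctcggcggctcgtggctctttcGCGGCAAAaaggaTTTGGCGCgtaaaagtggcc
E2F2, chr1:23531234-23531483, minus strand: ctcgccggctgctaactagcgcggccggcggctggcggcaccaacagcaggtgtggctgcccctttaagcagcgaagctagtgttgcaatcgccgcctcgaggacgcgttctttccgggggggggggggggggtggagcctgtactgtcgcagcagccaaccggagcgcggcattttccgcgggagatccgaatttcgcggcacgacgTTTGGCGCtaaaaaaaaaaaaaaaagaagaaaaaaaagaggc
UNG, chr12:109097347-109097596, plus strand: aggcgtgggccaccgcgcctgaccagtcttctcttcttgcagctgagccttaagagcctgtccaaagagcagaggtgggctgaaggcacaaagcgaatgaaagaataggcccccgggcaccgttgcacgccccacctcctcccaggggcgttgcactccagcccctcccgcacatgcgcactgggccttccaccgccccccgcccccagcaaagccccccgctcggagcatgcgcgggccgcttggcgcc
MCM10, chr10:13161308-13161557, plus strand: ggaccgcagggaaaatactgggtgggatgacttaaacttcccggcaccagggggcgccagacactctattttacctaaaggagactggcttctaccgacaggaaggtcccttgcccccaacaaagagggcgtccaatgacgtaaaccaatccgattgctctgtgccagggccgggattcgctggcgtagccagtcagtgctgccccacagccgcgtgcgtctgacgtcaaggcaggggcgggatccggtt

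The 23 genes whose window held the E2F letters had a median log2 fold change of 0.60 after the siRNA, with 19 higher and 0 lower, and the 28 without had 0.45, with 20 higher and 1 lower. Under WB436B the medians were 0.47 (20 higher, 1 lower) and 0.35 (24 higher, 0 lower). The ranges overlapped in both comparisons. No test was made of this split.

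MCM was the only role with every gene called upward in both comparisons, although the sizes of the changes varied. MCM2 to MCM7 encode the subunits of the replicative helicase, MCM8 a related helicase subunit of recombination, and MCM10 a factor that activates the assembled helicase. All 8 rose after STAT3 siRNA (0.47 to 1.00 on the log2 scale) and all 8 under WB436B (0.42 to 1.64). In every case the 3 treated libraries lay above the 3 vehicle libraries, which over all tested genes was so for 35.1% after the siRNA and 26.8% under WB436B, while 25.3% and 43.3% had every treated library below vehicle.

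MCM10 showed the largest rise of the 57 genes under WB436B. It stood at 6.21, 5.35 and 6.57 FPKM after the siRNA and at 8.98, 9.74 and 11.3 FPKM under WB436B, against 2.57, 2.64 and 2.31 FPKM in vehicle. The 3 groups did not overlap. The log2 fold change was 1.00 (SE 0.0938, adjusted p = 5.0e-05) after the siRNA and 1.64 (adjusted p = 1.3e-06) under WB436B.

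MCM2 was the MCM gene most raised by the siRNA after MCM10. Its levels were 42.1, 46.4 and 40.5 FPKM after the siRNA and 36.0, 34.9 and 37.1 FPKM under WB436B, against 23.8, 20.6 and 20.8 FPKM in vehicle, with log2 fold changes of 0.95 (adjusted p = 1.3e-05) and 0.71 (adjusted p = 3.1e-05). MCM2 shares 23.6% of its exon bases with genes on the other strand, chiefly TPRA1, which averaged 3.06 FPKM after the siRNA, 2.63 FPKM under WB436B and 2.57 FPKM in vehicle.

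MCM6 and MCM7 were raised more by the compound. MCM6 stood at 19.0, 18.5 and 18.5 FPKM after the siRNA and at 26.5, 26.4 and 27.9 FPKM under WB436B, against 13.1, 13.0 and 12.8 FPKM in vehicle. Its log2 fold changes were 0.49 (adjusted p = 1.9e-05) and 1.00 (adjusted p = 2.1e-07). The direct difference, WB436B minus siRNA, was 0.51 for MCM6 (adjusted p = 9.5e-06) and 0.43 for MCM7 (adjusted p = 1.3e-05).

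The balance of helicase subunit transcripts differed between groups. The sum of MCM2 to MCM7 was 232 ± 3.90 FPKM after the siRNA and 268 ± 5.50 FPKM under WB436B, against 148 ± 2.66 FPKM in vehicle (SD, n = 3 each). MCM7 had the highest level of the 6 and MCM5 the lowest, and the ratio of highest to lowest was 4.76 to 5.17 in the siRNA libraries and 6.42 to 6.63 under WB436B, against 4.97 to 5.30 in vehicle. In this ratio the WB436B libraries lay above both other groups, while siRNA and vehicle libraries overlapped. The SD across the 6 subunits, as a percentage of their mean, did not overlap between the 3 groups. It was 58.7 to 60.7% after the siRNA and 70.8 to 73.3% under WB436B, against 66.8 to 68.8% in vehicle.

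**Figure D2:**
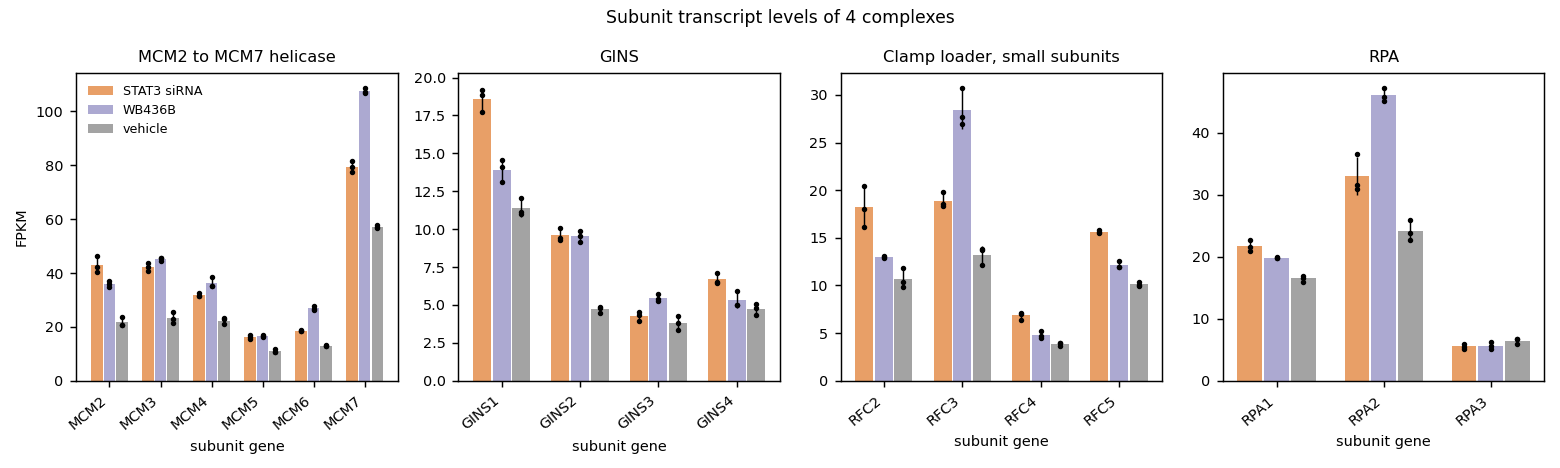
FPKM of each subunit gene of the MCM2 to MCM7 helicase, GINS, the small clamp loader subunits and RPA; bars are means of 3 libraries, lines SD and points the libraries. RFC3 and RPA2 are the highest of their subunits in every group, by most under WB436B (28.5 and 46.0 FPKM), and GINS1 is the highest GINS gene in every group, at 18.6 FPKM after STAT3 siRNA.

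CDC45 and GINS bind the MCM ring and turn it into an active helicase. On FPKM as deposited GINS2 rose alike in both groups, at 9.29, 10.1 and 9.43 FPKM after the siRNA and 9.90, 9.18 and 9.58 FPKM under WB436B, against 4.47, 4.83 and 4.83 FPKM in vehicle. Its log2 fold change was 0.89 in each comparison (adjusted p = 3.8e-06 after the siRNA and 1.5e-06 under WB436B), and the direct difference was -0.01 with a 95% interval of -0.12 to 0.11. CDC45 stood at 10.7, 14.2 and 12.1 FPKM after the siRNA and at 12.1, 12.5 and 12.8 FPKM under WB436B, against 7.06, 6.96 and 6.86 FPKM in vehicle, a rise of 0.73 and 0.76 on the log2 scale.

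GINS1 rose by 0.66 after the siRNA and by 0.27 under WB436B, a direct difference of -0.39 (adjusted p = 0.00038). GINS3 stood at 4.51, 3.94 and 4.35 FPKM after the siRNA and at 5.75, 5.27 and 5.40 FPKM under WB436B, against 4.29, 3.84 and 3.32 FPKM in vehicle, and was called under WB436B (0.43, adjusted p = 0.0016) and not after the siRNA (0.13, adjusted p = 0.21). For GINS3 the direct difference was 0.30 (adjusted p = 0.011). GINS4 rose by 0.42 after the siRNA, and its value under WB436B was 0.14 (adjusted p = 0.14), a call gained with each of 3 other scalings of the libraries (0.20 to 0.29). Its direct difference of -0.28 (adjusted p = 0.011) was lost with median-of-ratios scaling (-0.081, adjusted p = 0.39) and quantile normalization (-0.12, adjusted p = 0.23).

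Genes of origin licensing and firing rose in 6 of 10 cases after the siRNA, where 29.8% of all tested genes rose. Under WB436B 10 of 10 rose, where 24.9% of all tested genes did. ORC1, an ATPase subunit of the origin recognition complex, stood at 14.7, 13.6 and 14.4 FPKM after the siRNA and at 17.9, 18.1 and 18.9 FPKM under WB436B, against 8.94, 8.23 and 8.39 FPKM in vehicle. The 3 groups were separate, with log2 fold changes of 0.68 (adjusted p = 1.2e-05) and 1.02 (adjusted p = 5.6e-07). ORC6 stood at 12.4, 11.9 and 12.6 FPKM after the siRNA and at 11.8, 11.9 and 12.1 FPKM under WB436B, against 6.70, 5.26 and 6.39 FPKM in vehicle, and its direct difference was -0.04 (95% interval -0.21 to 0.13). That difference was not followed under other scalings.

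The remaining ORC genes rose under WB436B by 0.27 (ORC2), 0.36 (ORC3) and 0.83 (ORC5). After the siRNA ORC5 rose by 0.29, while ORC2 (0.07, adjusted p = 0.37) and ORC3 (0.12, adjusted p = 0.14) were not called. Leaving out vehicle 2 brought ORC3 to 0.17 (adjusted p = 0.046, within 0.046 to 0.47 over all alternatives). The ORC5 level was 7.53 FPKM after the siRNA and 11.3 FPKM under WB436B, against 5.96 FPKM in vehicle, a direct difference of 0.53 (adjusted p = 4.7e-05).

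CDT1 and CDC6 load the helicase, and geminin, the product of GMNN, blocks CDT1 after S phase has begun. CDT1 stood at 15.09, 15.02 and 13.69 FPKM after the siRNA and at 16.7, 16.0 and 17.2 FPKM under WB436B, against 8.05, 8.07 and 8.03 FPKM in vehicle (0.78, adjusted p = 5.7e-06, and 0.96, adjusted p = 7.6e-07). CDC6 rose by 0.75 and 0.71. GMNN was less even between replicates, at 8.14, 8.39 and 11.0 FPKM after the siRNA and 9.39, 11.1 and 10.2 FPKM under WB436B, against 5.89, 8.33 and 7.05 FPKM in vehicle.

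GMNN rose by 0.48 under WB436B (adjusted p = 0.012) and had 0.33 after the siRNA (adjusted p = 0.070), with siRNA and vehicle libraries overlapping. Without vehicle 2 it was called after the siRNA (0.44, adjusted p = 0.030, within 0.030 to 0.22 over all alternatives). The ratio of CDT1 to GMNN transcripts was 1.85, 1.79 and 1.25 after the siRNA and 1.77, 1.45 and 1.68 under WB436B, against 1.37, 0.969 and 1.14 in vehicle. WB436B libraries lay above the vehicle libraries in this ratio, while siRNA 3 fell within the vehicle range.

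The kinase CDC7 and its activator DBF4, which act as a pair, both rose under WB436B, while only CDC7 rose after the siRNA. CDC7 stood at 16.3, 17.2 and 17.7 FPKM after the siRNA and at 10.8, 13.2 and 11.8 FPKM under WB436B, against 8.95, 9.04 and 9.26 FPKM in vehicle (0.84, adjusted p = 2.2e-05, and 0.35, adjusted p = 0.0017). DBF4 stood at 3.22, 3.45 and 3.18 FPKM after the siRNA and at 5.75, 5.77 and 5.02 FPKM under WB436B, against 3.47, 3.42 and 3.37 FPKM in vehicle. It rose under WB436B (0.56, adjusted p = 5.4e-05) and had -0.04 after the siRNA (95% interval -0.18 to 0.09).

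The ratio of CDC7 to DBF4 was therefore 5.06, 4.98 and 5.55 after the siRNA and 1.88, 2.28 and 2.35 under WB436B, against 2.58, 2.64 and 2.75 in vehicle, with no overlap between the 3 groups. The direct differences, WB436B minus siRNA, were -0.49 for CDC7 (adjusted p = 0.00029) and 0.60 for DBF4 (adjusted p = 4.2e-05). The pseudogene DBF4P1 reached at most 9.78% of the DBF4 level in a library.

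**Figure D3:**
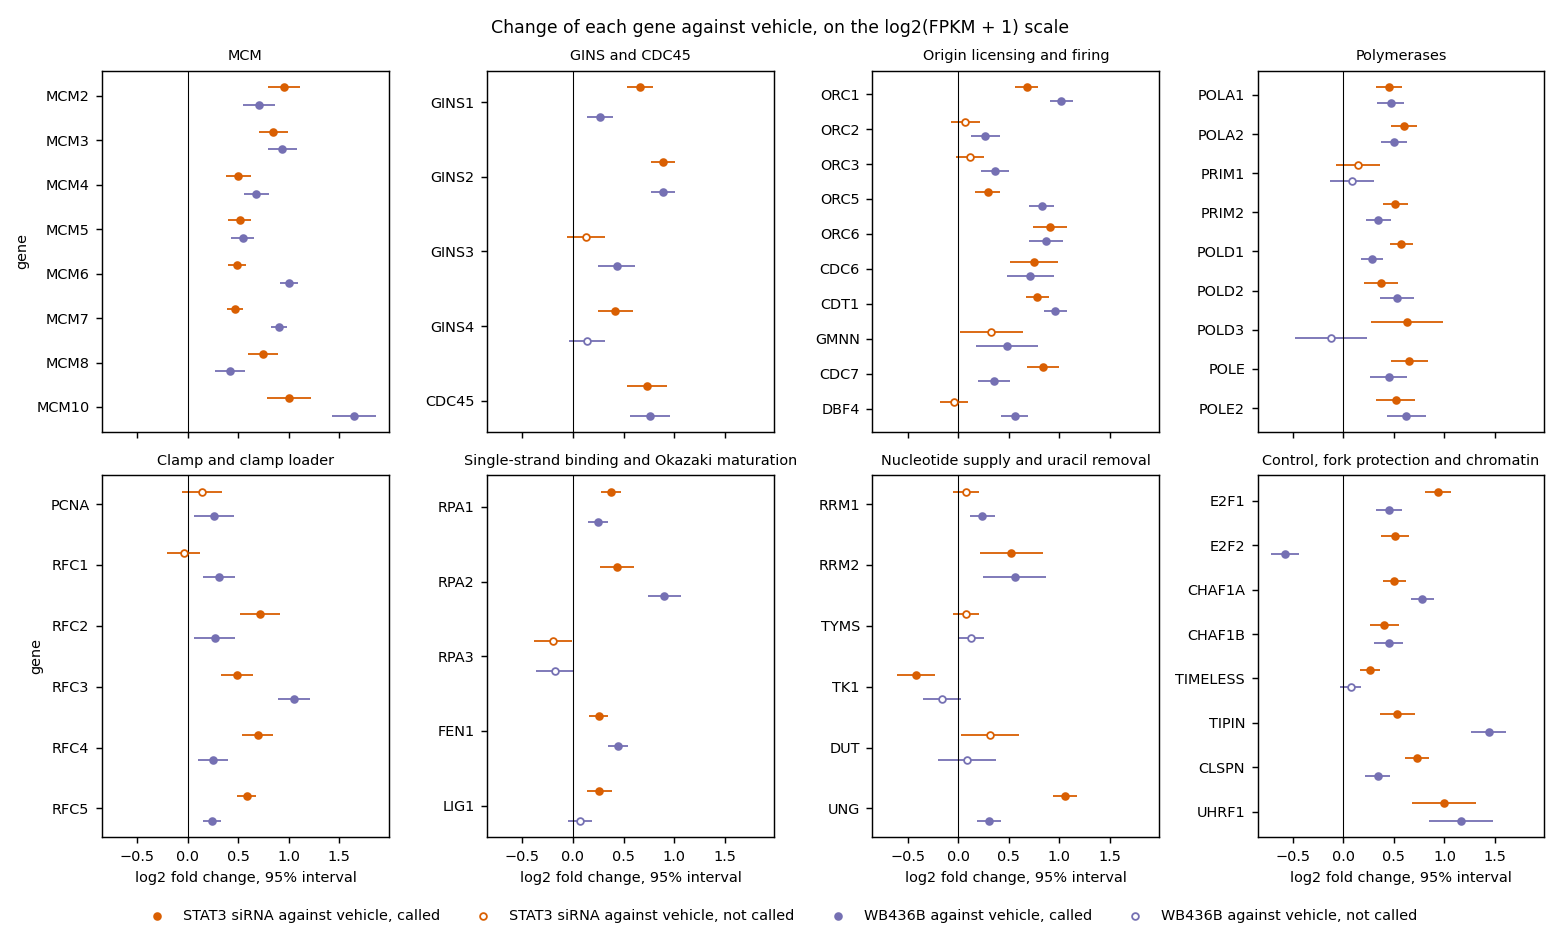
Log2 fold change of each gene against vehicle with its 95% interval, by role, for STAT3 siRNA (orange) and WB436B (purple); filled points were called at adjusted p below 0.05. Most points lie right of 0; E2F2 lies on opposite sides, at 0.51 and -0.58.

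Polymerase genes rose in 8 of 9 cases after the siRNA and in 7 of 9 under WB436B, by 0.28 to 0.65 where called. The shares of all tested genes that rose were 29.8% and 24.9%. POLE, the catalytic subunit of the leading-strand polymerase epsilon, stood at 9.19, 10.2 and 8.72 FPKM after the siRNA and at 7.46, 7.94 and 8.57 FPKM under WB436B, against 5.53, 6.15 and 5.10 FPKM in vehicle (0.65, adjusted p = 0.00022, and 0.45, adjusted p = 0.0011). Its partner POLE2 stood at 6.70, 5.55 and 6.86 FPKM after the siRNA and at 6.88, 7.24 and 6.60 FPKM under WB436B, against 3.84, 4.54 and 4.04 FPKM in vehicle (0.52 and 0.62). Treated libraries were above vehicle for both genes.

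Polymerase delta, which extends Okazaki fragments, showed a split between its subunit genes. POLD1, the catalytic subunit, rose by 0.57 after the siRNA and 0.28 under WB436B. POLD2 stood at 22.5, 21.2 and 23.3 FPKM after the siRNA and at 27.5, 24.9 and 23.0 FPKM under WB436B, against 16.2, 16.6 and 18.4 FPKM in vehicle (0.37 and 0.53). POLD3 stood at 8.10, 7.96 and 4.90 FPKM after the siRNA and at 3.54, 3.37 and 4.08 FPKM under WB436B, against 4.01, 3.91 and 4.25 FPKM in vehicle.

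The rise of POLD3 after the siRNA (0.63, SE 0.155, adjusted p = 0.0089) thus had the widest spread of the role, with siRNA 3 well below the other siRNA libraries. Under WB436B POLD3 had -0.12 (adjusted p = 0.52), a value that quantile normalization turned to 0.081 and median-of-ratios scaling to 0.010. Polymerase alpha and primase make the primers of new strands. POLA1 rose by 0.45 and 0.47, POLA2 by 0.60 and 0.50 and PRIM2 by 0.51 and 0.34 after the siRNA and under WB436B.

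PRIM1, the catalytic primase subunit, was called in neither comparison, at 8.28, 9.02 and 9.63 FPKM after the siRNA and 8.40, 8.59 and 8.70 FPKM under WB436B, against 6.69, 8.67 and 8.81 FPKM in vehicle. Its 95% intervals were -0.07 to 0.37 after the siRNA and -0.13 to 0.31 under WB436B. Median-of-ratios scaling gave a call under WB436B (0.23, adjusted p = 0.047). Without vehicle 1, the lowest of its libraries, the value under WB436B was -0.027 (adjusted p = 0.74, within 0.047 to 0.74 over all alternatives). PRIM1 shares 16.2% of its exon bases with genes on its own strand, and POLA2 shares 35.1%; NACA, a neighbour of PRIM1, averaged 26.8 FPKM after the siRNA, 29.3 FPKM under WB436B and 21.3 FPKM in vehicle.

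The sliding clamp PCNA, which tethers polymerases to DNA, had a small change at a high level. It stood at 159, 157 and 150 FPKM after the siRNA and at 186, 161 and 160 FPKM under WB436B, against 131, 134 and 159 FPKM in vehicle. Its call under WB436B (0.26, adjusted p = 0.026) was lost without vehicle 1 (0.21, adjusted p = 0.086), without vehicle 2 (0.22, adjusted p = 0.082) and without WB436B 1 (0.19, adjusted p = 0.086), and adjusted p ran from 0.0024 to 0.19 over all alternatives. After the siRNA PCNA had 0.14 (adjusted p = 0.19), which passed without vehicle 3 (0.23, adjusted p = 0.031, within 0.031 to 0.52 over all alternatives).

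The clamp loader, RFC, opens PCNA around DNA, and its 5 subunit genes fell into 2 patterns. RFC2, RFC4 and RFC5 rose more after the siRNA, and RFC1 and RFC3 more under WB436B. RFC3 stood at 19.8, 18.3 and 18.6 FPKM after the siRNA and at 27.0, 27.7 and 30.7 FPKM under WB436B, against 12.1, 13.8 and 13.8 FPKM in vehicle (0.48, adjusted p = 0.00047, and 1.05, adjusted p = 2.7e-06). RFC4 stood at 6.42, 7.14 and 7.01 FPKM after the siRNA and at 4.71, 5.23 and 4.47 FPKM under WB436B, against 3.96, 3.97 and 3.68 FPKM in vehicle (0.69, adjusted p = 5.2e-05, and 0.25, adjusted p = 0.0085).

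The 3 groups were separate for RFC3 and RFC4, in opposite order of the treated groups. RFC2 stood at 16.1, 18.1 and 20.4 FPKM after the siRNA and at 13.0, 13.1 and 12.9 FPKM under WB436B, against 9.87, 10.4 and 11.8 FPKM in vehicle (0.71, adjusted p = 0.00022, and 0.27, adjusted p = 0.025). The RFC2 call under WB436B was lost on leaving out vehicle 1, vehicle 2 or any WB436B library (0.22 to 0.27, adjusted p = 0.055 to 0.084), and adjusted p ran from 0.0023 to 0.084 over all alternatives. RFC1, the large subunit, stood at 9.51, 9.52 and 9.64 FPKM after the siRNA and at 11.5, 12.4 and 13.5 FPKM under WB436B, against 9.03, 10.7 and 9.87 FPKM in vehicle (-0.04, adjusted p = 0.66, and 0.31, adjusted p = 0.0047).

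Direct differences, WB436B minus siRNA, were 0.56 for RFC3 (adjusted p = 0.00012), 0.35 for RFC1 (adjusted p = 0.0025), -0.45 for RFC2 (adjusted p = 0.0020), -0.44 for RFC4 (adjusted p = 0.00042) and -0.34 for RFC5 (adjusted p = 9.9e-05). The summed level of RFC2 to RFC5 was nevertheless close, at 59.6 ± 1.77 FPKM after the siRNA and 58.4 ± 1.75 FPKM under WB436B, against 37.9 ± 1.85 FPKM in vehicle (SD, n = 3 each). The highest subunit exceeded the lowest 2.56 to 3.09 times in the siRNA libraries and 5.30 to 6.88 times under WB436B, against 3.07 to 3.74 times in vehicle.

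Replication protein A (RPA) coats single-stranded DNA. RPA2 stood at 36.6, 31.5 and 30.9 FPKM after the siRNA and at 47.2, 45.8 and 45.0 FPKM under WB436B, against 23.8, 22.6 and 26.0 FPKM in vehicle (0.43, adjusted p = 0.0012, and 0.90, adjusted p = 9.4e-06). RPA1 stood at 21.6, 22.8 and 20.9 FPKM after the siRNA and at 19.9, 19.7 and 19.9 FPKM under WB436B, against 16.9, 16.6 and 16.0 FPKM in vehicle (0.38 and 0.25). Both genes were higher in every treated library than in any vehicle library.

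RPA3, the smallest subunit, went the other way without a call. Its levels were 5.14, 5.47 and 5.96 FPKM after the siRNA and 6.20, 5.56 and 5.06 FPKM under WB436B, against 6.70, 5.90 and 6.79 FPKM in vehicle (-0.19, adjusted p = 0.078, and -0.18, adjusted p = 0.086). Without vehicle 2 both passed (-0.25, adjusted p = 0.048, and -0.23, adjusted p = 0.048), as did WB436B without its replicate 1 (-0.24, adjusted p = 0.036). Over all alternatives adjusted p ran from 0.036 to 0.21 after the siRNA and from 0.036 to 0.70 under WB436B.

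FEN1 trims the flap of an Okazaki fragment, and LIG1 seals the nick. FEN1 stood at 32.6, 33.2 and 35.1 FPKM after the siRNA and at 39.8, 37.6 and 37.9 FPKM under WB436B, against 28.2, 28.3 and 27.5 FPKM in vehicle (0.25, adjusted p = 0.0013, and 0.44, adjusted p = 2.7e-05). LIG1 rose by 0.26 after the siRNA (adjusted p = 0.0033) and had 0.07 under WB436B (95% interval -0.05 to 0.19), where median-of-ratios scaling gave a call (0.22, adjusted p = 0.0084, within 0.0084 to 0.76 over all alternatives).

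Of 6 genes of nucleotide supply and uracil removal, 2 were higher and 1 lower after the siRNA, where 29.8% of all tested genes were higher and 22.3% lower. Under WB436B 3 were higher and 0 lower, where 24.9% of all were higher and 41.1% lower. RRM1 and RRM2 encode the subunits of ribonucleotide reductase, which makes deoxyribonucleotides. RRM2 stood at 4.76, 4.85 and 5.18 FPKM after the siRNA and at 5.01, 5.54 and 4.72 FPKM under WB436B, against 2.66, 2.64 and 4.26 FPKM in vehicle, where vehicle 3 stood apart. It rose by 0.52 (SE 0.136, adjusted p = 0.011) and by 0.56 (adjusted p = 0.0060), and it shares 20.2% of its exon bases with AC007240.1 on its own strand.

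RRM1 had a level of 26.9, 26.7 and 26.8 FPKM after the siRNA and 31.1, 28.9 and 30.2 FPKM under WB436B, against 23.3, 26.1 and 26.7 FPKM in vehicle. It rose under WB436B (0.24, adjusted p = 0.0047) and had 0.08 after the siRNA (95% interval -0.05 to 0.20), which became a call with equal totals (0.13, adjusted p = 0.046, within 0.046 to 0.90 over all alternatives). The ratio of RRM2 to RRM1 was 0.184 ± 0.00828 after the siRNA and 0.170 ± 0.0192 under WB436B, against 0.125 ± 0.0303 in vehicle (SD, n = 3 each), and the WB436B and vehicle ranges overlapped.

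Thymidylate for DNA comes from thymidylate synthase (TYMS) or, by salvage, from thymidine kinase (TK1). TK1 was the only one of the 57 genes to fall after the siRNA, at 33.2, 27.8 and 27.4 FPKM after the siRNA and 36.7, 34.5 and 34.4 FPKM under WB436B, against 42.3, 39.5 and 36.8 FPKM in vehicle. Its log2 fold change was -0.41 (SE 0.0811, adjusted p = 0.0029) after the siRNA and -0.16 (adjusted p = 0.11) under WB436B, although all 3 WB436B libraries lay below vehicle. Without siRNA 1 the WB436B value passed (-0.16, adjusted p = 0.043), as it did with the replicate number as a block (adjusted p = 0.035), within 0.021 to 0.98 over all alternatives.

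TYMS was called in neither comparison, at 26.2, 25.6 and 24.2 FPKM after the siRNA and 25.4, 27.2 and 26.1 FPKM under WB436B, against 24.6, 22.2 and 25.1 FPKM in vehicle, with 95% intervals of -0.05 to 0.21 and 0.00 to 0.26. Under WB436B its value of 0.13 became a call with median-of-ratios scaling (0.28, adjusted p = 0.0029) and with equal totals (0.20, adjusted p = 0.028), within 0.0029 to 0.69 over all alternatives. Genes on the other strand, ENOSF1 and TYMSOS, cover 46.6% of its exon bases, and whether counting used strand is not given in the sources used here; ENOSF1 averaged 4.02 FPKM after the siRNA, 2.07 FPKM under WB436B and 3.22 FPKM in vehicle.

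DUT removes dUTP from the nucleotide pool, and UNG excises uracil that has entered DNA. UNG and MCM10 had the largest log2 fold changes of the 57 genes after the siRNA; UNG was ahead on log2(FPKM + 1), and MCM10 with a pseudocount of 0.1 (1.23, against 1.12 for UNG). UNG stood at 23.5, 21.5 and 23.4 FPKM after the siRNA and 13.3, 13.5 and 12.6 FPKM under WB436B, against 10.2, 10.2 and 10.9 FPKM in vehicle. The log2 fold change was 1.06 (SE 0.0524, adjusted p = 1.7e-06) after the siRNA and 0.30 (adjusted p = 0.00095) under WB436B, a direct difference of -0.75 (adjusted p = 5.9e-06).

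DUT stood at 10.3, 8.53 and 10.8 FPKM after the siRNA and at 7.96, 7.83 and 9.05 FPKM under WB436B, against 6.49, 7.65 and 9.25 FPKM in vehicle, and was called in neither comparison (0.31, adjusted p = 0.064, and 0.09, adjusted p = 0.57). Leaving out vehicle 3 gave a call after the siRNA (0.43, adjusted p = 0.016), as did leaving out siRNA 2 (0.41, adjusted p = 0.033) or adding the replicate block (adjusted p = 0.031), within 0.016 to 0.19 over all alternatives. Without vehicle 1 the WB436B value was -0.024. Its 8 annotated pseudogenes summed to at most 11.6% of the DUT level in a library.

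**Figure D4:**
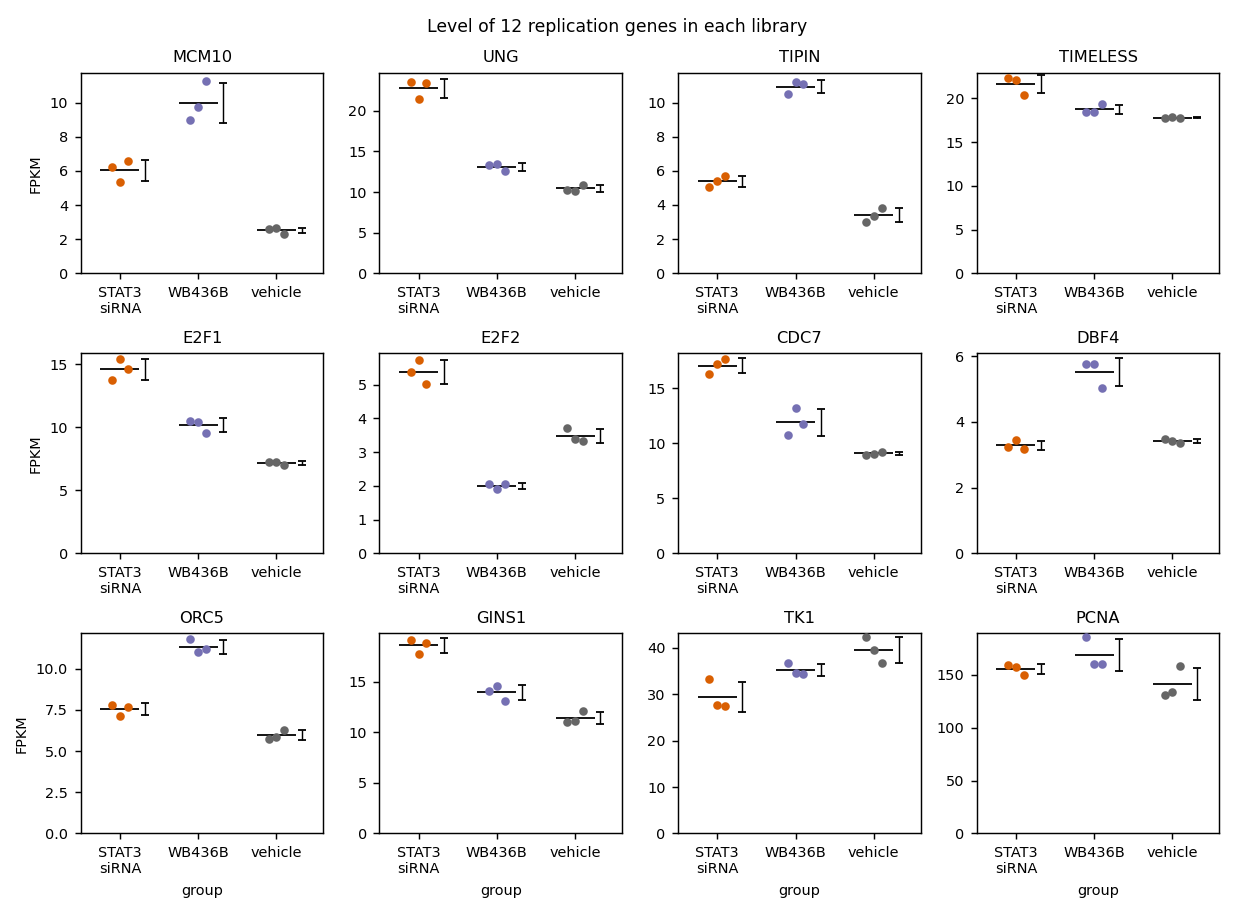
FPKM of 12 of the genes in each library by group (points), with the mean (line) and SD (bar) of 3 libraries; each axis starts at 0. UNG, E2F1, CDC7 and GINS1 are highest after STAT3 siRNA, MCM10, TIPIN, DBF4 and ORC5 highest under WB436B, and TK1 highest in vehicle.

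E2F1 and E2F2 are activating members of the E2F family. E2F1 stood at 13.8, 15.4 and 14.6 FPKM after the siRNA and at 10.5, 10.4 and 9.53 FPKM under WB436B, against 7.25, 7.28 and 6.98 FPKM in vehicle (0.93, adjusted p = 4.5e-06, and 0.45, adjusted p = 0.00014). E2F2 stood at 5.38, 5.73 and 5.02 FPKM after the siRNA and at 2.05, 1.90 and 2.05 FPKM under WB436B, against 3.71, 3.38 and 3.34 FPKM in vehicle. It was the only one of the 57 genes called in opposite directions, at 0.51 (SE 0.0614, adjusted p = 0.00020) and -0.58 (adjusted p = 5.0e-05).

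The direct difference of E2F2, WB436B minus siRNA, was -1.09 (95% interval -1.23 to -0.95, adjusted p = 2.1e-06), the largest among the 57 genes. The ratio of E2F1 to E2F2 was 2.72 ± 0.175 after the siRNA and 5.09 ± 0.420 under WB436B, against 2.07 ± 0.101 in vehicle (SD, n = 3 each), with no overlap between groups. The TTTGGCGC letters near the start of both genes are printed above.

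TIMELESS and TIPIN form a complex that keeps the helicase and polymerases together at the fork, and claspin (CLSPN) relays signals of fork stress to the checkpoint kinase CHK1. TIPIN stood at 5.04, 5.38 and 5.71 FPKM after the siRNA and at 10.5, 11.2 and 11.1 FPKM under WB436B, against 3.01, 3.37 and 3.85 FPKM in vehicle (0.53, adjusted p = 0.00049, and 1.44, adjusted p = 8.8e-07). It shares 21.0% of its exon bases with the ribosomal protein pseudogene RPL9P25 on the same strand, whose part in the TIPIN value was not tested. TIMELESS rose by 0.26 after the siRNA and had 0.07 under WB436B (95% interval -0.03 to 0.17), which became a call of 0.23 with median-of-ratios scaling (adjusted p = 0.0020, within 0.0020 to 0.92 over all alternatives).

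The ratio of TIMELESS to TIPIN was 4.43, 4.10 and 3.58 after the siRNA and 1.76, 1.65 and 1.75 under WB436B, against 5.91, 5.31 and 4.61 in vehicle. WB436B libraries lay far below both other groups, and siRNA libraries below vehicle. CLSPN rose by 0.73 after the siRNA and by 0.34 under WB436B.

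CHAF1A and CHAF1B encode subunits of the factor that deposits histones on new DNA, and UHRF1 recruits the maintenance DNA methyltransferase to hemimethylated sites. UHRF1 stood at 19.1, 16.1 and 18.6 FPKM after the siRNA and at 18.0, 18.1 and 25.2 FPKM under WB436B, against 9.55, 7.51 and 8.45 FPKM in vehicle (1.00, SE 0.137, adjusted p = 0.00042, and 1.16, adjusted p = 9.5e-05), with WB436B 3 above the other libraries. CHAF1A rose by 0.51 and 0.78 and CHAF1B by 0.40 and 0.45 after the siRNA and under WB436B.

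Set directly against STAT3 siRNA, WB436B had 19 of the 57 genes higher and 18 lower, where 20.0% of all tested genes were higher, 44.1% lower and 64.1% different either way. This split depended on scaling, since median-of-ratios scaling gave 31 higher and 10 lower, beside 31.5% and 30.7% of all tested genes. It moved the median direct difference of the 57 genes to 0.24, against 0.030 on FPKM as deposited, and that of all tested genes to -0.0023, against -0.18. Quantile normalization gave 18 higher and 15 lower, beside 28.1% of all tested genes in each direction.

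Under all 3 other scalings 15 genes remained higher under WB436B than after the siRNA, namely MCM6, MCM7, MCM10, GINS3, ORC1, ORC2, ORC3, ORC5, CDT1, DBF4, RFC1, RFC3, RPA2, CHAF1A and TIPIN. A total of 9 remained lower, namely GINS1, CDC7, POLD3, RFC2, RFC4, RFC5, UNG, E2F1 and E2F2. The share of all tested genes that kept a call under every scaling was not computed, so these counts have no background. The higher set includes 4 of the ORC genes and the lower set both E2F genes.

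Some direct differences also rested on single libraries. ORC2 (0.20) lost its call without siRNA 1, siRNA 2, WB436B 2 or WB436B 3 (0.15 to 0.20, adjusted p up to 0.080), and MCM4 (0.18) without siRNA 3 (0.17) or WB436B 3 (0.14). RRM1 (0.16) lost it without any siRNA library, WB436B 1 or WB436B 3 (adjusted p up to 0.096), and TK1 (0.25) without siRNA 2 (0.21), siRNA 3 (0.21) or WB436B 1 (0.22). PRIM2 (-0.17) lost it without siRNA 2, siRNA 3, WB436B 1 or WB436B 2 (-0.16 to -0.14), and RPA1 (-0.13) without siRNA 1 or 2 or any WB436B library (-0.13 to -0.097).

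Other genes of the pathway were read from lists beside the 57. Over all tested genes, the background for each list, 29.8% rose and 22.3% fell after the siRNA (median 0.062), and 24.9% rose and 41.1% fell under WB436B (median -0.13). Of 27 further replisome and origin factors, 19 rose and 3 fell after the siRNA (median 0.24) and 14 rose and 4 fell under WB436B (median 0.17). TONSL, which repairs stalled forks, averaged 7.55 FPKM after the siRNA and 6.86 FPKM under WB436B, against 3.52 FPKM in vehicle. MCMBP, an MCM-binding chaperone, averaged 23.9 FPKM after the siRNA and 38.3 FPKM under WB436B, against 20.1 FPKM in vehicle. SUPT16H, a subunit of the histone chaperone FACT, fell slightly to 36.4 FPKM after the siRNA and rose to 71.5 FPKM under WB436B, against 39.4 FPKM in vehicle, and the polymerase delta subunit gene POLD4 fell in both (-0.52 and -0.84).

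Of 32 further genes of nucleotide supply, 20 rose and 2 fell after the siRNA (median 0.34), against the background of 29.8% and 22.3%, and 23 rose and 6 fell under WB436B (median 0.58), against 24.9% and 41.1%. CTPS1, which makes CTP, averaged 16.0 FPKM after the siRNA and 22.6 FPKM under WB436B, against 7.49 FPKM in vehicle. PPAT, the first enzyme of purine synthesis, averaged 7.86 FPKM after the siRNA and 10.8 FPKM under WB436B, against 4.25 FPKM in vehicle. RRM2B, the p53-induced alternative to RRM2, fell in both comparisons (-0.20 and -0.75), and the ratio of RRM2 to RRM2B was 1.30 ± 0.0607 after the siRNA and 2.23 ± 0.111 under WB436B, against 0.700 ± 0.177 in vehicle (SD, n = 3 each).

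Among 21 tested genes of the E2F, RB and G1/S cyclin list, 15 rose and 0 fell after the siRNA, against the background of 29.8% and 22.3%. Under WB436B 9 rose and 5 fell, against 24.9% and 41.1%. Cyclin D1 (CCND1) rose by 0.84 and 1.16, and the phosphatase CDC25A averaged 8.97 FPKM after the siRNA and 13.0 FPKM under WB436B, against 3.74 FPKM in vehicle. RBL2, a repressor of E2F targets in resting cells, fell by 1.05 on the log2 scale under WB436B, and TFDP2, a dimerisation partner of E2F factors, by 1.01. SKP2, which targets the inhibitor p27 for degradation, rose by 0.92 after the siRNA and had -0.10 under WB436B, with no call.

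In the remaining lists the same shares of all tested genes apply, 29.8% higher and 22.3% lower after the siRNA and 24.9% higher and 41.1% lower under WB436B. Of 17 checkpoint and mismatch repair genes, 9 rose and 1 fell after the siRNA and 7 rose and 2 fell under WB436B. Of 13 chromatin assembly and methylation genes, 7 rose and 1 fell after the siRNA and 5 rose and 3 fell under WB436B, and the maintenance methyltransferase gene DNMT1 rose by 0.52 and 0.63. Of 8 tested genes on the histone list, 2 rose and 4 fell after the siRNA and 1 rose and 2 fell under WB436B. The 1 that rose under WB436B was SLBP, the histone mRNA-binding protein (1.12). Of 28 G2/M and mitosis genes, 0 rose and 24 fell after the siRNA (median -0.51), and 16 rose and 9 fell under WB436B (median 0.25). KIF20A averaged 25.2 FPKM after the siRNA against 61.7 FPKM in vehicle, and CDC20 averaged 246 FPKM under WB436B against 95.6 FPKM in vehicle.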

How the data were processed

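RNA-seq of 9 BxPC3 libraries was analysed from 1 table of FPKM values that the authors deposited, with a column per library. Bowtie 0.12.2 and build mm8 are named, per the submitters' processing notes; mm8 is a mouse assembly, whereas every gene carried a human identifier, so no coordinate was taken from it. Which program computed FPKM, with which annotation, strand setting or filters, is not stated here. Total RNA was isolated with a Qiagen RNeasy kit, per the labels' protocols.

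Genes reaching 1 FPKM in 3 or more of the 9 libraries were tested as log2(FPKM + 1), using R 4.3.3 and limma 3.58.1 with a variance trend (a mean per group, 6 residual degrees of freedom, no block). Adjusted p-values are Benjamini-Hochberg over all 12747 genes, two-sided, called below 0.05. The script was tested on simulated data. The 57 genes, roles and lists were chosen with earlier results of these data known. In each role the 2 genes with the largest called change per comparison against vehicle, those of opposite direction and those called in neither are given by library. DBF4, GINS1, GINS3, GMNN, ORC5, PCNA, POLD1, RFC5, RRM1, MCM7, TK1, the other genes given by fold only and those of the lists were named after their values were seen. Median-of-ratios factors used tested genes. Depth was estimated from the worth of 1 fragment in single-transcript genes of GENCODE 29 (GRCh38), also the source of exon overlaps. No block was used, as correlations of deviations between same-numbered libraries were weak and some lay below 0. They cannot exclude pairing, and those between vehicle and siRNA libraries were all above 0 (0.0419, 0.119 and 0.158).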

Additional observations from a re-analysis of the deposited data

How the results depend on the processing

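The 44 rises and 1 fall after STAT3 siRNA each held under all 20 alternative fits that could test the gene. Of the 47 rises under WB436B, 45 did, the exceptions being PCNA and RFC2, and so did its 1 fall. A filter of 5 FPKM tested 53 of the 57 genes. Leaving out each library gave 44 to 46 higher and 1 to 2 lower after the siRNA, 45 to 47 and 1 to 2 under WB436B, and 16 to 19 and 16 to 19 in the direct comparison, with medians of 0.48 to 0.51, 0.42 to 0.46 and 0.014 to 0.044. Of all tested genes, 26.2 to 29.7% were then higher and 19.6 to 22.1% lower after the siRNA. Under WB436B 22.6 to 24.9% of all were higher and 37.9 to 41% lower. In the direct comparison 18.4 to 20.5% of all were higher and 40.8 to 44.5% lower. The number lower after the siRNA was 2 with quantile normalization, 2 with median-of-ratios scaling, and 0 when at least 0.5 on the log2 scale was required. The shares of all tested genes lower there were 24.1%, 25.7% and 10.4%. Under WB436B the number lower was 2 with quantile normalization and 2 with a replicate block, beside 28.7% and 40% of all tested genes. Requiring at least 0.5 left 24 higher under WB436B, beside 11.6% of all tested genes. It left 6 higher and 3 lower in the direct comparison, beside 8.95% and 24.8% of all tested genes. The 6 higher were thus close to the share of all tested genes. Median-of-ratios scaling gave 31 higher and 10 lower there (median 0.24), beside 31.5% and 30.7% of all tested genes.

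The siRNA median was 0.55 with a pseudocount of 0.1, 0.53 with 0.5, 0.44 with median-of-ratios scaling and 0.55 with equal totals. The WB436B median was 0.51, 0.59 and 0.51 with a pseudocount of 0.1, median-of-ratios scaling and equal totals, and 0.53 with quantile normalization. Over all tested genes 37.7% of calls were upward under WB436B, against 49.9% with median-of-ratios scaling, 53.0% with quantile normalization and 50.4% with the filter of 5 FPKM; in the direct comparison the values were 31.2%, 50.6%, 50% and 44.2%. Signs turned for RFC1 after the siRNA (0.0094 with equal totals, 0.015 without vehicle 2, and -0.097 to 0.015 on leaving out each library), and under WB436B for POLD3 (0.081 by quantiles, 0.010 by median of ratios), PRIM1 (-0.027) and DUT (-0.024), the last both without vehicle 1, none of them called. On leaving out each library PRIM1 ran from -0.027 to 0.15 and DUT from -0.024 to 0.20. In the direct comparison only genes called on FPKM as deposited were followed gene by gene over the alternatives. Among them, median-of-ratios scaling turned PRIM2 (0.026), RPA1 (0.096), LIG1 (0.023) and TIMELESS (0.030). Quantile normalization turned PRIM2 (0.030), and none of these turned values was called. Sign changes of the genes without a call in the direct comparison were not listed. The cause of these changes was not tested. The labels link libraries of different groups by replicate number only. The block gave 46 higher after the siRNA and 47 higher under WB436B, beside 28.3% and 24% of all tested genes. It gave 18 higher and 17 lower in the direct comparison, beside 19.4% and 43% of all tested genes. The correlation of deviations between same-numbered libraries was -0.0847 to 0.158.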
